A study of Mus musculus with 4 samples.

Results

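Genes of cholesterol and fatty acid synthesis that are under the control of the sterol regulatory element-binding proteins (SREBPs) were followed in the stomach lining of mice without Muc6, which encodes a secreted mucin of gastric glands. The 28 genes were listed by function: 18 enzymes of the sterol branch, 6 enzymes of the fatty acid branch, 3 regulators (Insig1, Srebf1 and Srebf2) and the sterol carrier Stard4. All 28 were among the 34866 genes of the deposited count table, and all 28 passed the filter on low counts that left 14067 genes tested. Mucosa of the corpus, the acid-secreting part of the stomach, came from Muc6 +/+ mice (wild type, 2 libraries) and Muc6 -/- mice (knockout, 2 libraries). The study generated the knockout line to ask how Muc6 relates to gastric carcinogenesis. For age, strain, sex and the number of animals behind each library, the labels used here give nothing. The p-values therefore measure the spread between these libraries, which may be technical.

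Cells make cholesterol from acetyl-CoA by way of mevalonate, squalene and lanosterol, and make fatty acids from acetyl-CoA by way of malonyl-CoA, with later elongation and desaturation. The precursor SREBPs sit in the endoplasmic reticulum and, when sterols are low, are carried by Scap to the Golgi, where a pair of proteases release the active factor. SREBP2, the product of Srebf2, mainly serves the sterol branch, and SREBP1, the product of Srebf1, mainly the fatty acid branch. In many target promoters SREBPs bind a sterol regulatory element beside a site for the factor NF-Y.

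The promoters below are an example from each branch, and both hold NF-Y boxes, which were common among the sterol enzymes. Sequences are those of RefSeq on GRCm38.p6, which gave an entry for 22 of the 28 genes and none for Fdps, Fdft1, Sqle, Stard4, Scd1 or Scd2. The 250 bases before the annotated start were searched on both strands for the sterol element TCACNCCAC, the E-box-like TCACNTGA and the NF-Y box CCAAT, whose reverse strand reads ATTGG. Matches stand in capitals. Hmgcs1 makes the direct precursor of mevalonate, and its window is chr13:119690101-119690350 on the plus strand. Fasn is the fatty acid synthase gene, and its window is chr11:120824548-120824797 on the minus strand.
Hmgcs1: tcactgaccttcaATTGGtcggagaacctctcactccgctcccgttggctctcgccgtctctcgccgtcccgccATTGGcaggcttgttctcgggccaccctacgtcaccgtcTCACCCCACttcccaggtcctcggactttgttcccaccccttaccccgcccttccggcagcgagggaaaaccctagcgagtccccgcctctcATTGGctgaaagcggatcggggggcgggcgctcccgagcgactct
Fasn: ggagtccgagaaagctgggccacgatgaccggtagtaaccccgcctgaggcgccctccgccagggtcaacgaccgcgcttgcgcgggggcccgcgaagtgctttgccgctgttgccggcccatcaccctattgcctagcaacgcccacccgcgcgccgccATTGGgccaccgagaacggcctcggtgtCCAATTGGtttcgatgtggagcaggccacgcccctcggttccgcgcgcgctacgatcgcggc
The Hmgcs1 window held 1 sterol element, starting 137 bases before the start, and 3 NF-Y boxes. The Fasn window held 3 NF-Y boxes and no match to the sterol element, and 2 of its boxes overlap on opposite strands. An NF-Y box was present in 18 of the 22 genes (81.8%), against 33.9% of all 32851 promoters, 37.5% of all genes with an entry and 40.4% of the 10754 tested genes with an entry. It was present in 14 of 15 sterol enzymes, the exception being Acat2, and in 1 of 4 fatty acid enzymes (Fasn, but not Acly, Acaca or Elovl6). The sterol element was present in Hmgcs1 alone among the 22 genes, against 1.05% of all promoters and 1.22% of tested genes with an entry. The E-box-like sequence was present in 0 of the 22, against 3.46% and 3.90%. Such matches describe the letters of a window and not binding.

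The libraries held 20327745 to 27946423 counts. Muc6 followed the labels, with counts of 8542 (wild type 1), 6000 (wild type 2), 0 (knockout 1) and 10 (knockout 2). Values are given as CPM, which are counts scaled to a common library size adjusted by trimmed-mean (TMM) factors. Of each pair of values, the first is that of library 1, and ± stands for the SE of a log2 fold change with n = 2 libraries per genotype. Y-linked transcripts (Ddx3y, Uty, Kdm5d, Eif2s3y) reached 121 to 136 CPM in the wild-type pair but 1.44 to 2.44 CPM in the knockout pair. By these transcripts sex, which the labels do not give, differs between the genotypes. Genotype and sex therefore cannot be told apart in any comparison below. Summed markers of other stomach regions were higher in both knockout libraries, and by far the most in knockout 1. Not every marker was higher in knockout 2, where Gast and Krt5 had 0 counts. Nkx6-3 was at 0.45 CPM in knockout 2, against 0.36 and 0.31 CPM in the wild-type pair. The 3 antral genes (Gast, Pdx1 and Nkx6-3) summed to 0.686 and 0.365 CPM in the wild-type pair, 190.5 CPM in knockout 1 and 2.97 CPM in knockout 2, and both tested ones were higher without overlap. The 6 squamous markers (Krt5, Krt14, Krt13, Krt4, Krt6a and Trp63) summed to 0.847 and 0.260 CPM in the wild-type pair, 156 CPM in knockout 1 and 13.0 CPM in knockout 2, with all 4 tested ones higher without overlap and Trp63 at 0 throughout. The 4 genes listed as mucous neck cell markers (Tff2, Gkn3, Aqp5 and Cftr) summed to 1035 and 707 CPM in the wild-type pair. Their sums were 12470 CPM in knockout 1 and 8128 CPM in knockout 2. All 4 were higher without overlap, against 26.3% of genes tested. Tff2 held most of each sum. Aqp5, at 2.78 and 1.93 CPM, and Cftr, at 0.323 and 0.260 CPM, were scarce in the wild-type pair, so the sum does not give the amount of neck cells. Of the 4 surface pit cell markers, 3 were lower without overlap, against 23.8% of genes tested. The 4 summed to 109000 and 72260 CPM in the wild-type pair, 61760 CPM in knockout 1 and 48510 CPM in knockout 2. The 10 parietal cell markers, among them the proton pump gene Atp4a, summed to 16830 and 16310 CPM in the wild-type pair, 832 CPM in knockout 1 and 5363 CPM in knockout 2. The detected chief cell markers summed to 64360, 147800, 2320 and 81390 CPM in wild type 1, wild type 2, knockout 1 and knockout 2. In such bulk tissue, fewer cells of a type and less RNA per cell cannot be told apart. Hepatocyte genes summed to 1607 and 1390 CPM in the wild-type pair, 60.7 CPM in knockout 1 and 474 CPM in knockout 2. Nearly all of that was Apoa1, at 1606, 1384, 59.4 and 468 CPM in the same order, the 1 of 3 tested genes lower without overlap. Alb, the albumin gene, was at or below 5.31 CPM in every library. Pancreatic acinar genes summed to 39.0 and 61.0 CPM in the wild-type pair, 116 CPM in knockout 1 and 80.2 CPM in knockout 2. Of 3 tested, 1 was higher and 1 lower without overlap. The higher one was Cela1, which held nearly all of the sum in knockout 1, at 22.8, 19.9, 116 and 54.5 CPM in the same order. Cel was the lower one, at 13.0, 24.6, 0 and 5.08 CPM, and Amy2a5 overlapped, with 0 counts in knockout 1. The rise of the sum is thus that of Cela1 and not of the acinar list. Immune, fibroblast and endothelial markers overlapped between genotypes. Smooth muscle markers followed the sample number rather than the genotype, with 184.5 and 222 CPM in the libraries numbered 1 and 1225 and 1103 CPM in those numbered 2. Fibroblast and endothelial markers did so too, with 21.3 and 43.8 CPM against 294.9 and 313.6 CPM in the same order. Immune markers were likewise lower in the libraries numbered 1, at 7.79 and 10.9 CPM against 35.5 and 18.5 CPM. Mitochondrially encoded genes held 9.39% and 8.73% of counts in the wild-type pair, 5.97% and 5.41% in the knockout pair. The part of these differences in the results that follow was not tested. Values without a library, given below, show only how far a result rests on that library.

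In the comparison of knockout with wild type, sterol enzymes were mostly higher in knockout, by log2 fold changes of at most 1.26, and the desaturase genes Scd1 and Scd2 were higher by 3.14 and 3.40. None of the 28 genes passed the test over all genes (edgeR's quasi-likelihood test with Benjamini-Hochberg adjustment), which called 0% of the 14067 genes tested. By limma-voom the count was also 0 of 28, and 0 of all genes tested. Muc6 itself did not pass edgeR's test (log2 fold change -10.6, adjusted p = 0.178), so failing it does not show that a gene is unchanged. At an unadjusted edgeR p under 0.05, 10 of the 28 genes were higher, against 9.22% of genes tested, and 0 were lower, against 6.68%. By DESeq2, 4 of the 28 passed as higher after adjustment (Pmvk, Stard4, Scd1 and Scd2), against 4.06% of genes tested. In 19 of the 28 both knockout libraries lay above both wild-type libraries, against 26.3% of genes tested, and in 0 both lay below, against 23.8%. Under other scalings the count of 19 ranged from 18 to 24. Since knockout 1 lay above both wild-type libraries in all 28 genes, the 19 are the genes in which knockout 2 did so as well. The fitted change was upward in 27 of 28 genes, the exception being Hsd17b7, and no gene changed its direction under the other scalings.

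**Figure D1:**
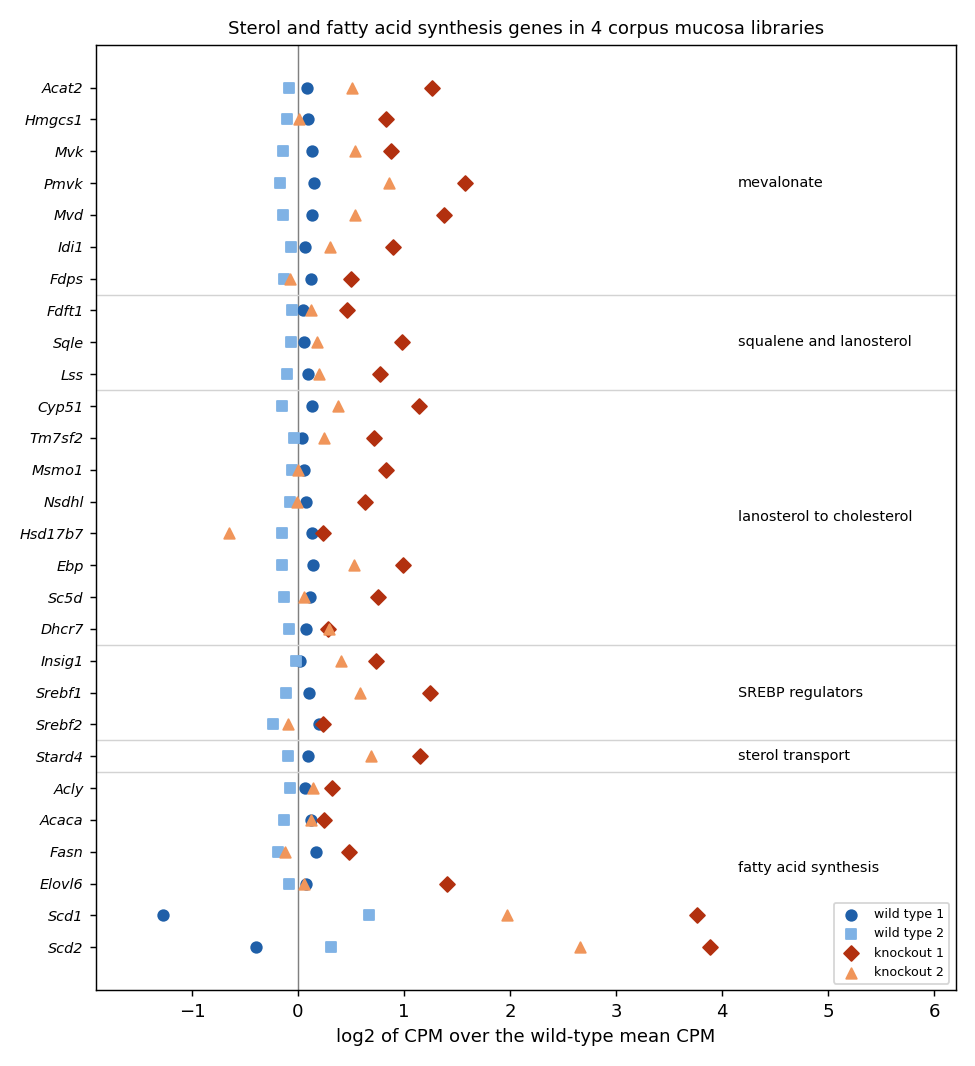
Each row is 1 gene and each point 1 library, placed on the x axis by the log2 of its CPM over the mean CPM of the 2 wild-type libraries; grey lines separate the functional groups named at the right. Knockout 1 lies above both wild-type libraries in all 28 genes and knockout 2 in 19, Hsd17b7 is the gene with knockout 2 far to the left, and Scd1 and Scd2 lie farthest to the right.

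The first steps of the sterol branch, from acetyl-CoA to the isoprenoids, held its largest fitted differences, namely those of Pmvk, Mvd and Acat2. Pmvk, which phosphorylates mevalonate phosphate, was at 14.0 CPM in wild type 1, 11.3 CPM in wild type 2, 37.5 CPM in knockout 1 and 23.0 CPM in knockout 2. Both knockout libraries were above both wild-type ones, with a log2 fold change of 1.26 ± 0.30 (adjusted p = 0.237 by edgeR, DESeq2 adjusted p = 0.0306). Mvd, which forms isopentenyl diphosphate, was at 22.8 and 18.9 CPM in the wild-type pair and 54.2 and 30.2 CPM in the knockout pair (log2 fold change 1.02 ± 0.34, adjusted p = 0.290 by edgeR). Acat2, the thiolase that joins acetyl-CoA units, had 18.4 and 16.4 against 41.7 and 24.7 CPM (0.93 ± 0.30). These genes share an order, with knockout 1 highest, knockout 2 next and the wild-type libraries close together below. Mvk, the mevalonate kinase gene, had 18.2 and 15.0 against 30.4 and 24.1 CPM (0.71 ± 0.19). Idi1, which isomerises isopentenyl diphosphate, had 121 and 110 against 214 and 142 CPM (0.63 ± 0.26). Hmgcs1, whose promoter is printed above, was at 484 and 423 CPM in the wild-type pair and 806 and 457 CPM in the knockout pair. Its knockout 2 value lay between the wild-type values, so the genotypes overlapped (0.48 ± 0.35, adjusted p = 0.577 by edgeR). Fdps, which makes farnesyl diphosphate, overlapped too, at 97.1 and 81.1 CPM against 126 and 84.5 CPM (0.24 ± 0.26).

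The genes that commit farnesyl diphosphate to sterols had small differences without overlap. Sqle, the squalene epoxidase and a slow step of the pathway, was at 103 and 94.9 CPM in the wild-type pair and 196 and 112 CPM in the knockout pair (log2 fold change 0.64 ± 0.32, adjusted p = 0.422 by edgeR). Fdft1, the squalene synthase gene, had 118 and 109 against 156 and 124 CPM, and Lss, the lanosterol synthase gene, 45.3 and 39.6 CPM against 72.7 and 48.7 CPM. In each of these 3 genes knockout 2 was above the higher wild-type library by a margin smaller than the distance between the knockout libraries.

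From lanosterol to cholesterol, 7 of 8 enzymes were higher in the fit. Of the 8, 4 were higher without overlap (Cyp51, Tm7sf2, Ebp and Dhcr7), against 26.3% of genes tested. Cyp51, the lanosterol demethylase gene, was at 125 and 102 CPM in the wild-type pair and 251 and 148 CPM in the knockout pair (log2 fold change 0.81 ± 0.32). Ebp, a sterol isomerase gene on the X chromosome, had 45.4 and 37.1 against 81.7 and 59.4 CPM (0.77 ± 0.23, adjusted p = 0.259 by edgeR). Tm7sf2, a sterol reductase gene, had 24.9 and 23.5 against 39.7 and 28.8 CPM. Dhcr7, which takes part in the closing reductions of cholesterol synthesis, was the only one of the 28 genes in which knockout 2 was not below knockout 1. It was at 27.8 and 24.9 CPM in the wild-type pair and 31.97 and 32.2 CPM in the knockout pair (0.28 ± 0.13). Msmo1, Nsdhl and Sc5d, which act between lanosterol and the late sterols, each had knockout 2 within the wild-type range and knockout 1 above it. Msmo1 had 126 and 116 against 215 and 121 CPM, Nsdhl 21.02 and 18.9 CPM against 31.0 and 19.8 CPM, and Sc5d 91.5 and 77.2 CPM against 142 and 87.8 CPM. Hsd17b7, a ketoreductase gene of sterol synthesis, was at 25.3 and 20.8 CPM in the wild-type pair and 27.2 and 14.7 CPM in the knockout pair, so the knockout libraries lay on both sides of the wild-type ones (-0.14 ± 0.34).

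TPM, which are transcript counts per exon length scaled within a library, allowed levels to be compared between genes. Hmgcs1 led the sterol enzymes in every library, with 29.4% and 29.5% of their summed TPM in the wild-type pair, 28.7% and 26.1% in the knockout pair. Idi1 came next, at 9.62% and 10.04% against 9.99% and 10.6%. Lss and Hsd17b7 were among the lowest, at 1.10% to 1.19% and 0.758% to 1.38% over the 4 libraries. The low place of Lss rests on the length used, that of all annotated exons of a gene merged. At 10787 bases it was the longest among the sterol enzymes. By wild-type mean CPM, Lss was at 42.5, above Hsd17b7 at 23.1 and Pmvk at 12.6. The order of the enzymes by TPM was much the same in both genotypes, and the share of 1 enzyme moved by few percentage points. Pmvk held 2.28% and 2.10% in the wild-type pair, 3.58% and 3.52% in the knockout pair, while Hsd17b7 held 1.38% and 1.31% in the wild-type pair, 0.871% and 0.758% in the knockout pair. These shares do not depend on how libraries were scaled to each other.

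**Figure D2:**
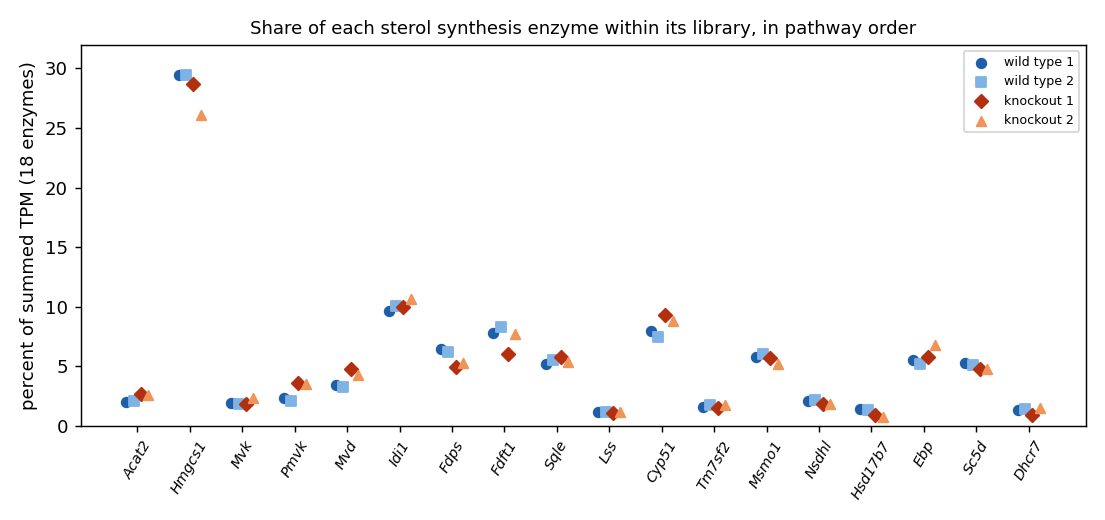
The x axis lists the 18 sterol enzymes in pathway order and the y axis gives the percent of their summed TPM held by each enzyme, with 1 point per library. Hmgcs1 holds 26.1% to 29.5% in all 4 libraries, and Pmvk lies higher and Hsd17b7 lower in both knockout libraries than in both wild-type libraries.

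Insig1 and Srebf1 stood higher in knockout without overlap between genotypes, and Srebf2 did not. Insig1, which encodes a sterol-sensing protein that holds SREBPs in the endoplasmic reticulum and is itself a target of SREBPs, was at 154 and 150 CPM in the wild-type pair and 253 and 201 CPM in the knockout pair (log2 fold change 0.58 ± 0.20, adjusted p = 0.294 by edgeR). Srebf1 had 56.6 and 48.5 against 124 and 79.0 CPM (0.95 ± 0.27, adjusted p = 0.258 by edgeR). Srebf2 was at 271 and 201 CPM in the wild-type pair and 278 and 220 CPM in the knockout pair, with overlap (0.08 ± 0.25, adjusted p = 0.917 by edgeR). The ratio of Srebf1 to Srebf2 TPM within a library was 0.267 and 0.309 in the wild-type pair, 0.570 and 0.458 in the knockout pair. Counts per gene do not separate the SREBP1a and SREBP1c transcripts. Stard4, which carries cholesterol between membranes, was at 44.4 and 39.0 CPM in the wild-type pair and 92.7 and 67.4 CPM in the knockout pair (0.94 ± 0.21, adjusted p = 0.229 by edgeR, DESeq2 adjusted p = 0.0222).

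In the fatty acid branch, the genes split by step. The 3 enzymes that make palmitate had small differences. Acly, which supplies cytosolic acetyl-CoA from citrate, was at 174 and 158 CPM in the wild-type pair and 207 and 183 CPM in the knockout pair (log2 fold change 0.23 ± 0.18, adjusted p = 0.590 by edgeR). Acaca, the acetyl-CoA carboxylase gene that makes malonyl-CoA, had 31.5 and 26.5 against 34.4 and 31.6 CPM (0.19 ± 0.15). The knockout libraries of both genes lay above the wild-type ones by small margins. Fasn, the fatty acid synthase gene, overlapped, at 247 and 193 CPM against 307 and 202 CPM (0.21 ± 0.29, adjusted p = 0.785 by edgeR). Elovl6, which elongates palmitate to stearate, was high in knockout 1 alone: it was at 29.5 and 26.4 CPM in the wild-type pair and 74.0 and 29.1 CPM in the knockout pair (0.88 ± 0.49, adjusted p = 0.465 by edgeR).

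The desaturases differed most. Stearoyl-CoA desaturases put the first double bond into stearate and palmitate. Scd2 (chromosome 19, 44293674 to 44306864 on the plus strand, mm10) was at 31.0 and 50.5 CPM in the wild-type pair and 602.5 and 257 CPM in the knockout pair. Both knockout libraries were far above both wild-type ones, 14.8-fold and 6.32-fold above the wild-type mean. In log2 terms the difference was 3.40 ± 0.57 (adjusted p = 0.209 by edgeR, DESeq2 adjusted p = 1.01e-08, limma-voom adjusted p = 0.224). Scd1 (44394455 to 44407879 on the minus strand of the same chromosome) was at 2.38 and 9.12 CPM in the wild-type pair and 78.1 and 22.5 CPM in the knockout pair (3.14 ± 0.97, adjusted p = 0.275 by edgeR, DESeq2 adjusted p = 0.00571). Its values were 13.6-fold and 3.92-fold above the wild-type mean, with no overlap. Counts behind Scd1 were 59 and 175 in the wild-type pair, 1741 and 546 in the knockout pair. Their paralog Scd3 stayed at or below 0.363 CPM in every library. Reads can be shared among such near copies where the counting splits them, so the division between Scd1 and Scd2 is uncertain, though Scd2 was the higher in each library, with 11.7 and 4.96 times the TPM of Scd1 in wild type and 6.91 and 10.2 times in knockout.

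**Figure D3:**
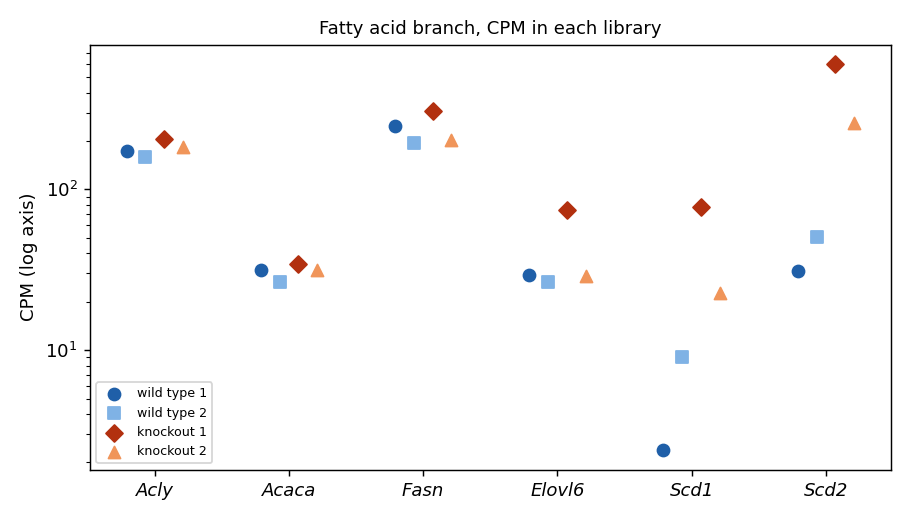
Each point is 1 library and the y axis is CPM on a log axis, for the 6 fatty acid enzymes in pathway order. The 4 libraries lie close together for Acly, Acaca and Fasn, knockout 1 alone is high for Elovl6, and both knockout libraries stand above both wild-type libraries for Scd1 and Scd2.

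The makeup of the fatty acid branch differed between genotypes within libraries. Scd1 and Scd2 together held 9.04% and 17.3% of the summed TPM of the 6 enzymes in the wild-type pair, 61.0% and 46.5% in the knockout pair. Their summed TPM was 0.273 and 0.630 times that of Fasn in wild type and 4.51 and 2.80 times in knockout. Acly led the branch in wild type, with 48.4% and 46.5%, and Scd2 led it in knockout, with 53.3% and 42.3%. The leading gene of this branch thus differed between genotypes, while Hmgcs1 led the sterol branch in all 4 libraries.

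Set against each other, the sterol and the fatty acid branch had the same median difference but not the same spread. Both knockout libraries lay above both wild-type ones in 12 of 18 sterol enzymes and 4 of 6 fatty acid enzymes, against 26.3% of genes tested. Under the other scalings they did so in 12 to 16 and 3 to 5. The median log2 difference between genotypes was 0.48 over the 18 sterol enzymes and 0.48 over the 6 fatty acid enzymes, against 0.01 over all genes tested. The fatty acid median fell in a gap, midway between Acly and Elovl6, so it stands for no single gene of that branch. Because Scd1 and Scd2 lie far from the rest, the mean was 0.53 for the sterol branch and 1.30 for the fatty acid branch. Acly, Acaca and Fasn, grouped after their values were seen, had a median of 0.19. Per library, knockout 1 lay above the wild-type mean by a sterol median of 0.83 and a fatty acid median of 0.95, and knockout 2 by 0.23 and 0.14. The wild-type libraries themselves lay at 0.10 and -0.10 for the sterol branch and 0.07 and -0.07 for the fatty acid branch. The sterol minus the fatty acid median was 0.02 and -0.02 in the wild-type pair, -0.12 in knockout 1 and 0.09 in knockout 2, so the knockout libraries differed in its sign. These branch values have no test, because with 2 libraries against 2 an exact permutation test cannot give a p below 0.33 and the members were proposed with results known. Without knockout 1 the sterol median was 0.18 and the fatty acid median 0.09, and without knockout 2 they were 0.78 and 0.89.

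Both branches thus stood higher in knockout 1, the library with the highest antral and squamous marker sums, than in knockout 2, and the part of those tissues in the lipid genes was not tested. Knockout 1 was above knockout 2 in 27 of the 28 genes, against 49.1% of genes tested. With knockout 1 left out, Hmgcs1, Fdps, Msmo1, Nsdhl, Srebf2 and Fasn took log2 fold changes from -0.17 to -0.03. With knockout 2 left out, 7 of the 28 genes passed edgeR's test as higher (Acat2, Pmvk, Mvd, Srebf1, Stard4, Elovl6 and Scd2), against 2.39% of genes tested in that fit, which rests on knockout 1 alone and assumes that it varies as the wild type does. Adipocytes, which make fatty acids, could also be in a mucosa sample. Their 8 markers summed to 41.6 and 51.4 CPM in the wild-type pair, 63.7 CPM in knockout 1 and 54.4 CPM in knockout 2. Adipoq, Lep and Cfd had 0 counts in all libraries and Plin1 was at most at 0.135 CPM. Cidec, which encodes a lipid droplet protein, was higher without overlap, at 29.0 and 18.2 CPM in the wild-type pair, 46.9 CPM in knockout 1 and 30.9 CPM in knockout 2 (log2 fold change 0.72 ± 0.34). Fabp4, a fatty acid binding protein gene, overlapped, at 12.4 and 33.1 CPM in the wild-type pair, 16.5 CPM in knockout 1 and 23.5 CPM in knockout 2. The part of adipocytes in the lipid genes was not tested. The 13 proliferation genes, whose cells need membrane lipid, summed to 375 and 301 CPM in the wild-type pair and 733 and 654 CPM in the knockout pair, with 13 of 13 higher without overlap, against 26.3% of genes tested. The part of proliferation in the lipid genes was not tested.

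Other genes of the pathway, from lists drawn up by function, were counted in the same fit, and edgeR called 0 of them after adjustment, as did limma-voom. At an unadjusted edgeR p under 0.05, 9.22% of genes tested were higher and 6.68% lower. At that threshold the remaining sterol synthesis and uptake list had 2 of 9 higher, and further lipid synthesis 1 higher and 2 lower of 15. Fatty acid oxidation had 5 of 12 lower, and SREBP processing and sterol efflux had 0. DESeq2 called 1 higher in the first of these lists, 1 higher and 2 lower in the second, 3 lower in oxidation and 0 in the others, against 4.06% of genes tested called higher and 3.36% called lower. Of 9 tested genes of the remaining sterol synthesis and uptake, 6 were higher. Without overlap, 4 were higher and 2 lower, against 26.3% and 23.8% of genes tested, and the lower count is near its share. Set against wild type, the median of this list was 0.52 for knockout 1 and 0.01 for knockout 2 on the log2 scale.

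The genes that carry, hold and cut SREBPs lay slightly lower in knockout, with a median log2 difference of -0.10. Of the 8 SREBP processing genes, 2 were higher and 6 lower in the fit. Without overlap, 0 were higher and 3 lower, against 26.3% and 23.8% of genes tested. Scap was at 152 and 115 CPM in the wild-type pair and 99.5 and 98.9 CPM in the knockout pair (log2 fold change -0.42 ± 0.20), and Insig2, a second sterol sensor, had 67.7 and 52.1 against 62.3 and 45.4 CPM. Sterol efflux, esterification and LXR genes, which respond to sterol excess, went both ways, with 5 higher and 6 lower of 11 tested. Among them Abca1, a cholesterol exporter, had 5.45 and 15.5 against 5.07 and 8.59 CPM, Abcg1 3.75 and 7.40 CPM against 8.97 and 9.13 CPM, and Mylip, a target of LXR, 2.22 and 6.62 CPM against 3.004 and 4.997 CPM. Of these 3 genes, Abcg1 alone had no overlap. Relative to the wild-type mean, the median of the list was -0.48 and 0.48 for wild type 1 and 2, 0.31 for knockout 1 and 0.37 for knockout 2, with both knockouts inside the wild-type range.

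Of 15 further tested genes of fatty acid and lipid synthesis, 9 were higher and 6 lower, 4 and 3 of them without overlap. Those counts are near the shares of all genes tested, 26.3% and 23.8%. Fads2, a desaturase of polyunsaturated fatty acids, was at 1.74 and 3.91 CPM in the wild-type pair and 15.0 and 7.76 CPM in the knockout pair (log2 fold change 2.02 ± 0.58, adjusted p = 0.259 by edgeR). Elovl5, an elongase of such fatty acids, had 5.57 and 11.5 against 19.95 and 15.8 CPM, while Fads1, the partner desaturase, overlapped at 3.27 and 10.3 CPM against 9.10 and 6.15 CPM. Acss2, which makes acetyl-CoA from acetate, had 45.9 and 39.5 against 43.2 and 39.0 CPM. Gpam, which starts glycerolipid synthesis, was lower, at 59.9 and 53.3 CPM in the wild-type pair and 10.6 and 26.6 CPM in the knockout pair (-1.61 ± 0.48, adjusted p = 0.266 by edgeR). Thrsp was at or below 1.35 CPM, and Mlxipl, which encodes the carbohydrate-responsive factor ChREBP, at or below 0.493 CPM.

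Fatty acid oxidation genes lay in the opposite direction. Of 12 tested, 11 were lower and 1 higher in the fit, 8 of the lower ones without overlap, against 23.8% of genes tested. Their median log2 difference was -0.48, with -0.47 in knockout 1 and -0.46 in knockout 2. Cpt1a, which admits fatty acids to mitochondria, was at 310 and 258 CPM in the wild-type pair and 262 and 210 CPM in the knockout pair, with overlap (log2 fold change -0.27 ± 0.22). Unlike the synthesis branches, this list stood at nearly the same level in both knockout libraries. Acat3, a near copy of Acat2, was at or below 0.165 CPM. Parietal cells are rich in mitochondria, and their markers were lower in both knockout libraries, further so in knockout 1, by the sums given above. The part of those cells in the oxidation genes was not tested.

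**Figure D4:**
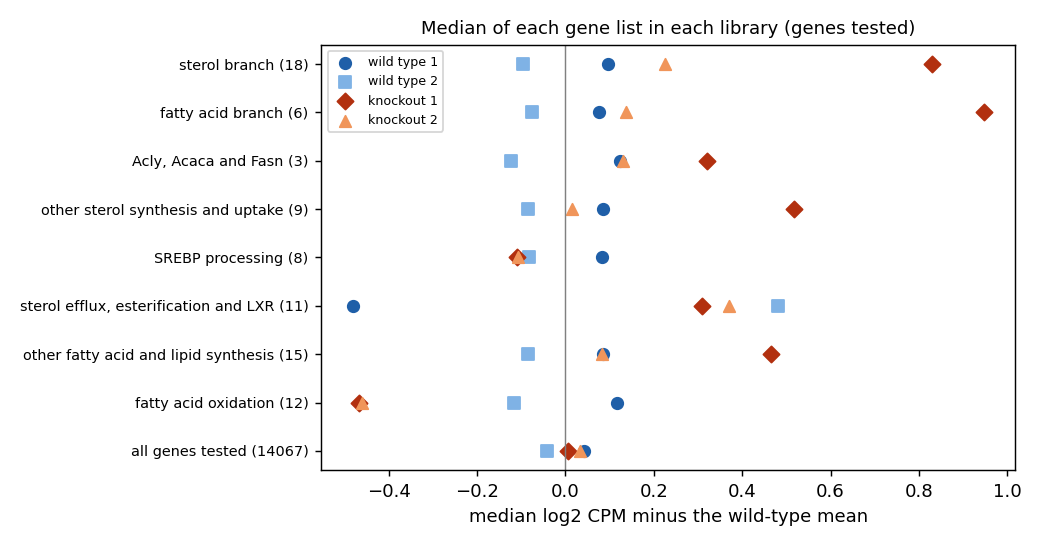
Each row is a gene list with its number of tested genes, and each point is the median over its genes of the log2 CPM minus the wild-type mean in 1 library. The sterol and fatty acid branches are highest in knockout 1 (0.83 and 0.95), fatty acid oxidation is at -0.47 and -0.46 in knockout, and all genes tested lie near 0.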

How the data were processed

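Corpus mucosa RNA was made into libraries with a stranded mRNA kit, per the labels' protocols, and the build was mm10, per the submitters' processing notes. Aligner, counter, gene annotation and use of strand: not given in the sources used here. The authors deposited estimated counts (35.0% of nonzero values not whole), which were rounded. Identifiers without version were matched to GENCODE M21, the same assembly (34582 of 34866 rows). That release also gave exon lengths for TPM, with all annotated exons of a gene merged.

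The main test was edgeR 4.0.16 in R 4.3.3 (quasi-likelihood, robust, TMM, filterByExpr, no covariate), adjusted over all 14067 genes tested at 0.05. Standard errors are the log2 fold change over the root of F. List values are medians of log2 CPM (prior count 2). DESeq2 1.42.0, limma 3.58.1 (voom), other scalings, filters, a replicate block and leaving out each library were alternatives. The test was checked on simulated data. Libraries of a genotype were not duplicates (chi-square per degree of freedom 139 and 272).

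The 28 genes and the lists were chosen with earlier results of these data known. Named were all 28 genes, Muc6, listed pathway genes and cell type markers; some listed pathway genes are not reported here, and further marker lists are given by sums or counts only. The grouping of Acly, Acaca and Fasn and the ratios within libraries were chosen after values were seen.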

Additional observations from a re-analysis of the deposited data

How the results depend on the processing

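Leaving out each library in turn, the median difference ranged from 0.18 to 0.78 for the sterol branch, from 0.09 to 0.89 for the fatty acid branch and from -0.12 to 0.089 for their difference. The number of the 28 genes called ranged from 0 to 7, and of all genes from 0 to 851. DESeq2 called 4 of the 28 and 1044 genes in all, and edgeR without a filter called 0 and 9. With the mean in place of the median the fatty acid branch was at 1.30 and the sterol minus fatty acid difference at -0.77. That difference was -0.24 with Insig1, Srebf2 and Stard4 in the sterol branch and Srebf1 in the fatty acid branch. Log2 fold changes of 7 genes changed sign with a library left out. The ranges were -0.033 to 0.78 for Hmgcs1, -0.12 to 0.45 for Fdps, -0.048 to 0.77 for Msmo1, -0.060 to 0.58 for Nsdhl and -0.17 to 0.43 for Fasn, negative without knockout 1. Srebf2 ranged from -0.14 (without knockout 1) to 0.32 and was -0.13 without wild type 2, and Hsd17b7 ranged from -0.69 to 0.19, positive without wild type 1 (0.014) or knockout 2. The cause was not tested. The sample numbers name no shared animal or batch, but same-numbered libraries deviated together (correlation 0.517 across genes). With the number as a replicate block, 0 of the 28 genes and 0 of all genes tested were called. The block leaves the sterol median at 0.48 by construction, since each number occurs once in each genotype. The other scalings, the stricter filter, limma-voom and the other edgeR fits called 0 of the 28 and 0 of all genes tested. In windows of 100 bases, 15 of 22 genes held an NF-Y box, against 25.9% of tested genes, and 0 the sterol element, against 0.493%, a share at which 0 of 22 is no result. The counts of genes without overlap under each scaling were added after seeing the data. With 2 libraries per genotype, 1 library can set a median, as the values above show.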
